A study of Mus musculus with 7 samples.

Results

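Transcripts of 8 genes of DNA repair were examined in erythroblasts with and without the mitochondrial superoxide dismutase SOD2. The genes are Msh3, Msh6, Pms2 and Exo1 of mismatch repair and Ogg1, Mutyh, Ung and Apex1 of base excision repair. Every probe set that the array annotation gives to one of these genes alone was taken, which makes 18 probe sets for the 8 genes, out of 45037 probe sets tested and 18193 genes. Msh3 has 4 of these probe sets, Pms2, Exo1 and Apex1 have 3 each, Ogg1 has 2, and Msh6, Mutyh and Ung have 1 each.

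RNA came from CD71+ TER-119+ erythroblasts sorted from the marrow of mice reconstituted with Sod2+/+ or Sod2-/- fetal liver cells. Donors were littermates from matings of heterozygous B6-Sod2tm1Cje mice, taken at embryonic day 13.5 to 16.5, and the hosts were irradiated Ly5.1 C57BL/6 females that were 11 to 15 weeks old at transplantation. Sod2 was thus missing in the transplanted blood cells of Sod2-/- chimeras and present in the rest of the host. Sod2+/+ replicates are numbered 17, 29, 33 and 37 (n = 4), and Sod2-/- replicates are numbered 31, 35 and 39 (n = 3). The labels do not say if every array stands for its own mouse, so the spread behind a p-value may in part be technical. A further Sod2-/- array of the study was not used here.

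Mismatch repair removes wrongly paired bases and small loops left behind by the replication fork. Msh6 and Msh3 each join the same MutS partner, the Msh6 pair reading single mismatches and the Msh3 pair larger loops, after which a MutL complex containing Pms2 nicks the new strand and the exonuclease Exo1 removes it. In base excision repair a glycosylase cuts out a damaged base, and Apex1 then cuts the strand at the empty site. Ogg1 removes oxidized guanine, Mutyh removes adenine placed opposite oxidized guanine, and Ung removes uracil. Superoxide dismutases remove superoxide, and erythroblasts divide several times before they lose their nucleus. The activity of either repair pathway was not measured here.

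The RefSeq promoter windows (GRCm38.p6, 300 bases around a transcript start, 5′ to 3′ on the gene's strand) are shown for the 3 genes with a probe set past the threshold, Msh6, Ung and Apex1, and for Msh3, the counterpart of Msh6. Windows were found for 7 of the 8 genes, and Exo1 has none. Capitals mark matches on either strand to TTTCCCGC, TTTGGCGC and TTTCGCGC (forms of the site of E2F factors, which drive genes of S phase), CCAAT (the CCAAT box) and GGGCGG (the GC box).
Msh6: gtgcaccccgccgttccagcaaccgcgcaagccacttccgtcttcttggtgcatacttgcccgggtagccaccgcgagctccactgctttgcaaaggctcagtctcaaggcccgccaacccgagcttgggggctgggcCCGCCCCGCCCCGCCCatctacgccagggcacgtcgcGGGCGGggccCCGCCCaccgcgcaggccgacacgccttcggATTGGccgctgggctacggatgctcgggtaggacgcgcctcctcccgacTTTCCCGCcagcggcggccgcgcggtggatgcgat
Msh3: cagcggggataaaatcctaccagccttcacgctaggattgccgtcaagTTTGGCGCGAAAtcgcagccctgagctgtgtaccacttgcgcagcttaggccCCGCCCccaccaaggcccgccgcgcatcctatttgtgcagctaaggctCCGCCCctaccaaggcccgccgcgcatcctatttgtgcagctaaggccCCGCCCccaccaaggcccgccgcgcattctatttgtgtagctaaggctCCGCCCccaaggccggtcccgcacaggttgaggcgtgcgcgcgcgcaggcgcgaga
Ung: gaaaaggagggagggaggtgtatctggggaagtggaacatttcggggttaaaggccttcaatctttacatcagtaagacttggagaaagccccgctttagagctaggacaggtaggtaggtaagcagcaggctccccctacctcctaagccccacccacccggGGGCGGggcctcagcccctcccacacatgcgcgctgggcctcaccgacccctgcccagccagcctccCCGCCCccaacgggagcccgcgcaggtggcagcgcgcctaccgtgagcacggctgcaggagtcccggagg
Apex1: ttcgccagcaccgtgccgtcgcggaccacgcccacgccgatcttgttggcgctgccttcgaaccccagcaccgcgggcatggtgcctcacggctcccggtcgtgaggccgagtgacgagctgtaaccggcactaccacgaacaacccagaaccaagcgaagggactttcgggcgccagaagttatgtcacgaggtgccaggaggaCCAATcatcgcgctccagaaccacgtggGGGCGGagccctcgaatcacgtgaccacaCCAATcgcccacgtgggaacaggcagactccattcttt
The windows lie at chr17:87974800-87975099 (plus strand) for Msh6, chr13:92354954-92355253 (minus strand) for Msh3, chr5:114130185-114130484 (plus strand) for Ung and chr14:50924699-50924998 (plus strand) for Apex1. An E2F form was found in Msh6 (TTTCCCGC, from base 266 of the window) and in Msh3 (TTTGGCGC and, overlapping it on the other strand, TTTCGCGC, from bases 49 and 53), and in none of the windows of the other 5 genes that have one. Of 32851 windows of all genes, 1.84% hold at least 1 of the 3 forms. GC boxes number 5 in Msh6, 4 in Msh3, 2 in Ung and 1 in Apex1, and 35.7% of all windows hold at least 1. The CCAAT box occurs 1 time in Msh6, 2 times in Apex1 and 0 times in Msh3 and Ung, and 37.4% of all windows hold it. A match is a description of the letters and no evidence of binding.

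Levels are on the log2 scale of the authors' robust multi-array average (RMA), a method that subtracts background, equalizes the arrays and combines the probes into a level per probe set. The median level of an array lay between 4.45 and 4.54. The 95th percentile lay between 8.42 and 8.71 in the Sod2+/+ group and between 8.20 and 8.42 in the Sod2-/- group. The upper levels were thus not equal across the arrays as deposited. Genotypes were compared by limma over all probe sets, with Benjamini-Hochberg adjusted p-values and a threshold of 0.05, and a negative log2 fold change means a lower level in Sod2-/- erythroblasts. The brightest Sod2 probe set lay between 8.20 and 8.62 (log2) in the Sod2+/+ group and between 8.09 and 8.61 in the Sod2-/- group. It does not check the genotype, since the study states that not all Sod2 probe sets fall in the deleted exon. The ratio of the 3′ to the 5′ control probe set of Gapdh, a measure of RNA integrity, lay between 1.24 and 1.45 (log2) in the Sod2+/+ group and between 1.10 and 1.21 in the Sod2-/- group, and that of beta-actin between 0.672 and 0.874 and between 0.691 and 0.777. The part of RNA integrity in the results was not tested. Fluidics station 1 held Sod2+/+ replicates 17 and 29 with Sod2-/- replicate 31, and station 2 held the other 4 arrays. Chip lot 1 held all Sod2+/+ arrays with Sod2-/- replicate 35, and lot 2 held Sod2-/- replicates 31 and 39. With chip lot as a block, the genotype estimate thus rests on Sod2-/- replicate 35 alone, as it does within chip lot 1.

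Repair transcripts that differed were lower in Sod2-/- erythroblasts. Msh6 and Ung fell on their only probe sets and Apex1 on 1 of 3. No probe set of Msh3, Pms2, Exo1, Ogg1 or Mutyh passed. Ogg1 and Mutyh are the glycosylases that deal with oxidized guanine and the adenine opposite it. Their probe sets lay below a mean log2 value of 6, where few of all probe sets were called lower, so their not passing says little. Of the 18 probe sets, 3 were lower and 0 higher by limma at an adjusted p under 0.05, where 2.83% of all probe sets were lower and 0.566% higher. At an unadjusted p under 0.05, 7 were lower (12.5% of all probe sets) and 0 higher (7.04%). The methods' t-test (equal variances) after Benjamini-Hochberg adjustment called 0 on these 7 arrays, where it called 3 lower and 1 higher of all probe sets. The study, which used a further Sod2-/- array, listed Msh6 among the transcripts with higher levels in Sod2+/+ cells. It reports slight RNA degradation in 1 Sod2-/- specimen, and says that leaving this specimen out gave similar results. The listing of Msh6 thus differs from the 0 calls here, and the cause of this difference was not tested. The values of the genotypes did not overlap in 7 of the 18, all lower in Sod2-/- erythroblasts (10.2% of all probe sets were lower and 7.84% higher without overlap). The log2 fold change was below 0 in 15 of the 18, against 40.6% of all probe sets, and its median was -0.10 against 0.03. Counted by gene on the brightest probe set, 2 of 8 genes were lower (4.47% of all genes) and 0 higher (0.412%), and 4 were lower at an unadjusted p under 0.05 (18.4%). The genotypes did not overlap in 5 of the 8 genes, all lower (14.8% of all genes were lower and 7.19% higher without overlap), and 7 of the 8 log2 fold changes were below 0 (45.8% of all genes). Probe sets with a mean log2 value from 6 to 8 were lower in 10.6% of cases, those from 4 to 6 in 1.2% and those from 2 to 4 in 0.0521%. Of the 18, 4, 10 and 4 lie in these ranges. The median log2 fold change of all probe sets in these ranges was -0.18, 0.05 and 0.03, and it was -0.24 from 8 to 16. After quantile normalization these medians were 0.02, 0.02 and 0.002, and -0.05 from 8 to 16. Of the 18, 7 lay below the median log2 value of all probe sets (4.48). In RNA of sorted populations, fewer cells of a type and less RNA per cell cannot be told apart.

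**Figure D1:**
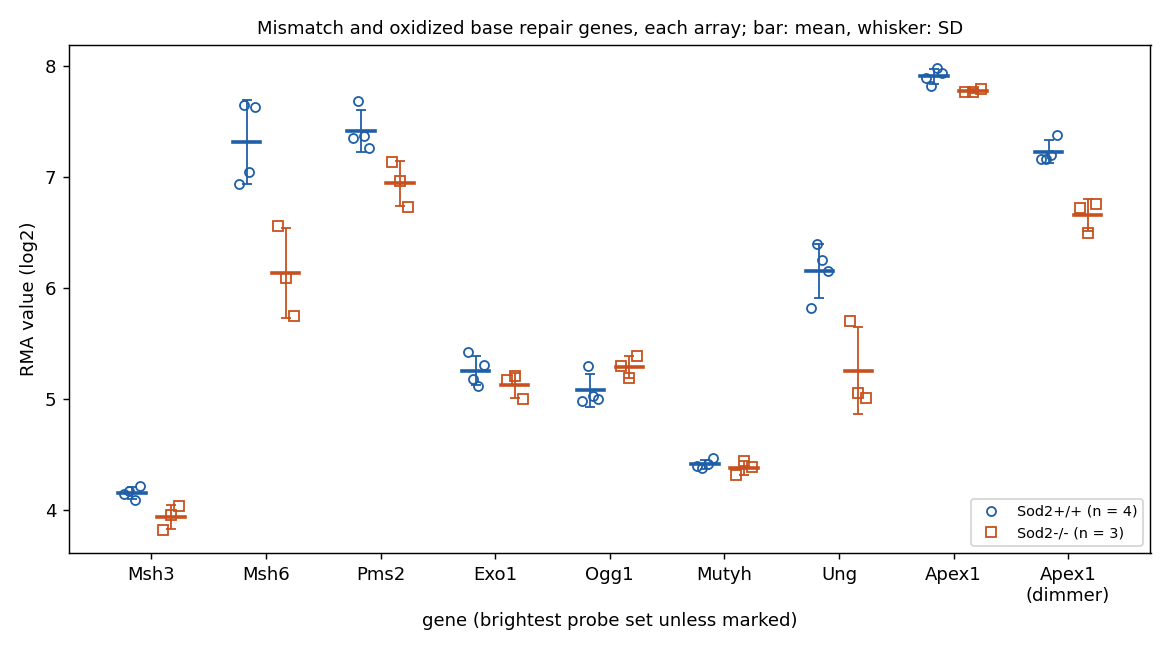
RMA log2 value (vertical axis) of the 8 genes on their brightest probe set, and of Apex1 also on the dimmer probe set that passed, in 4 Sod2+/+ arrays (blue circles) and 3 Sod2-/- arrays (orange squares), with bars for the mean and whiskers for the SD. Msh6, Ung and the dimmer Apex1 probe set show the largest differences between genotype means, and the points of Exo1, Ogg1 and Mutyh overlap.

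Msh6, the mismatch reader, measured 6.94, 7.65, 7.05 and 7.63 (log2) in the Sod2+/+ arrays (replicates 17, 29, 33 and 37, the order kept throughout) and 6.56, 6.10 and 5.75 in the Sod2-/- arrays (replicates 31, 35 and 39). All 3 Sod2-/- arrays lay below all 4 Sod2+/+ arrays, and Sod2+/+ replicates 29 and 37 stood above 17 and 33. The Sod2+/+ mean was 7.32 ± 0.38 (SD, n = 4) against 6.14 ± 0.41 (SD, n = 3) without SOD2, a log2 fold change of -1.18 (standard error 0.23, 2.27-fold lower with a 95% interval from 1.57 to 3.27, adjusted p = 0.0368). Msh6 lies on chromosome 17, as does Sod2, and the part of this location in the Msh6 difference was not tested. The adjusted p was 0.0928 and 0.0923 without Sod2+/+ replicates 29 and 37 and 0.120 and 0.0877 without Sod2-/- replicates 35 and 39, at log2 fold changes from -0.99 to -1.16. With fluidics station as a block the log2 fold change was -1.14 (adjusted p = 0.0594), within stations 1 and 2 it was -0.73 and -1.42 (adjusted p = 0.719 and 0.150), with chip lot as a block it was -1.22 (adjusted p = 0.142), and within chip lot 1, where 1 Sod2-/- array remained and was taken to vary like the Sod2+/+ arrays, it was -1.22 (adjusted p = 0.109).

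Msh3, the MutS protein of larger loops, had log2 values of 4.14, 4.17, 4.09 and 4.22 in Sod2+/+ and of 3.82, 3.95 and 4.04 in Sod2-/- arrays on its brightest probe set. The genotypes did not overlap, but the gap between the nearest arrays was small. The log2 fold change of -0.22 (standard error 0.07, 95% interval from -0.39 to -0.05) did not pass (adjusted p = 0.146). Its other 3 probe sets had log2 fold changes from -0.07 to 0.04 and overlapped between genotypes. All 4 Msh3 probe sets lay below the median log2 value of all probe sets.

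Because Msh6 and Msh3 share a partner, their difference within each array was compared. Msh6 minus Msh3 was 2.80, 3.48, 2.95 and 3.41 (log2) in Sod2+/+ and 2.74, 2.14 and 1.71 in Sod2-/- arrays. The Sod2-/- values all lay below the Sod2+/+ values, with replicates 31 and 17 close to each other. The genotype difference was -0.96 (3.16 ± 0.33 in Sod2+/+ and 2.20 ± 0.52 in Sod2-/-, SD), with an exact two-sided permutation p = 0.0286 over all 35 splits of the arrays, the smallest that 4 against 3 arrays can give. Since the Msh3 level is low on this scale, where array fold changes are compressed, the difference does not show that the transcripts themselves changed unequally. Msh6 alone already separated the genotypes and Msh3 differed little between arrays, so the permutation p largely repeats the Msh6 difference. After quantile normalization the difference of Msh6 minus Msh3 was -0.76 (exact permutation p = 0.0571).

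Pms2, the MutL subunit that nicks DNA, had log2 values of 7.35, 7.69, 7.37 and 7.26 in Sod2+/+ and of 7.14, 6.96 and 6.73 in Sod2-/- arrays on its brightest probe set. Here too the genotypes did not overlap. The log2 fold change was -0.47 (standard error 0.13, 95% interval from -0.76 to -0.19) and did not pass (adjusted p = 0.0805). Its other 2 probe sets had log2 fold changes of -0.07 and 0.07, with overlapping values. Exo1, the exonuclease, had a log2 fold change of -0.13 (95% interval from -0.34 to 0.08, adjusted p = 0.491) on its brightest probe set, with overlapping genotypes. Its second probe set, annotated to the same sequence record as the brightest, had log2 values of 5.06, 5.40, 4.96 and 5.11 in Sod2+/+ and of 4.80, 4.87 and 4.504 in Sod2-/- arrays. These did not overlap, and the log2 fold change was -0.41 with a standard error of 0.12 (adjusted p = 0.112). The third Exo1 probe set was dim, with group means of 3.44 (Sod2+/+) and 3.36 (Sod2-/-) on the log2 scale.

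**Figure D2:**
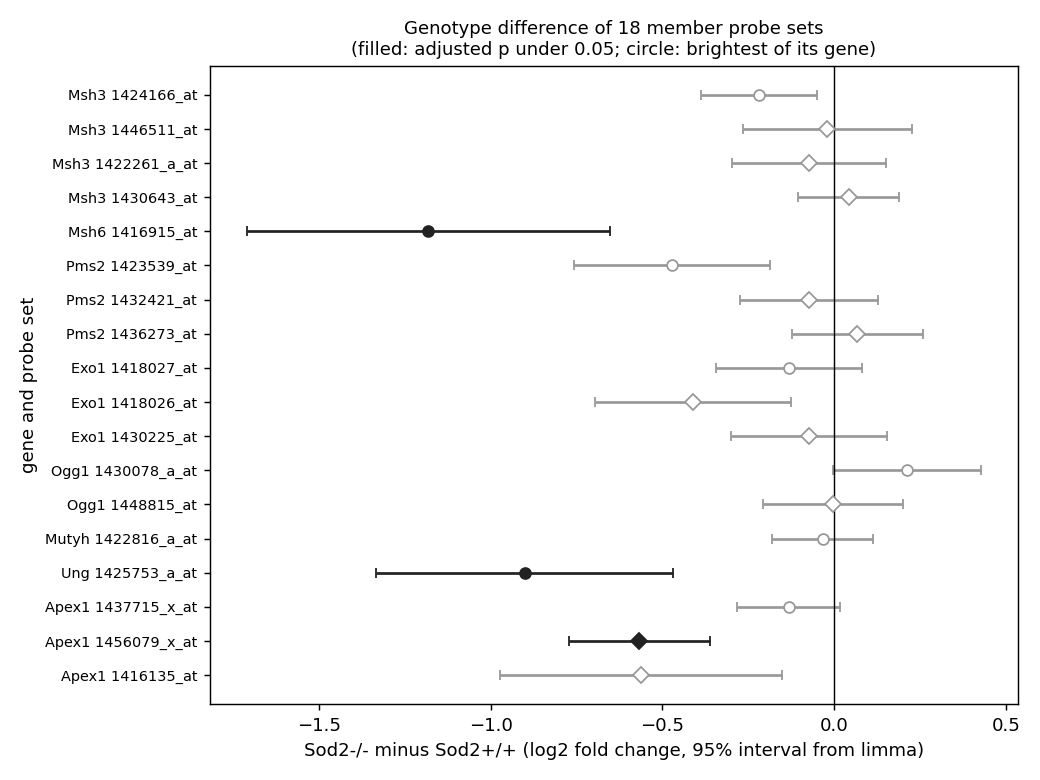
Log2 fold change, Sod2-/- minus Sod2+/+ (horizontal axis), of the 18 probe sets with 95% intervals from limma; filled symbols passed an adjusted p of 0.05 and circles mark the brightest probe set of a gene. Msh6 and Ung lie farthest from 0, at -1.18 and -0.90, and 3 of the 18 estimates lie above 0.

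Ung, the uracil glycosylase, had log2 values of 5.82, 6.40, 6.25 and 6.15 in Sod2+/+ and of 5.71, 5.05 and 5.01 in Sod2-/- arrays. The genotypes did not overlap, although Sod2-/- replicate 31 lay close to Sod2+/+ replicate 17. The Sod2+/+ mean was 6.16 ± 0.24 (SD, n = 4) against 5.26 ± 0.39 (SD, n = 3) without SOD2. Ung was thus 1.87-fold lower (95% interval from 1.38 to 2.52, log2 fold change -0.90 with a standard error of 0.19, adjusted p = 0.0429). The annotation gives Ung 1 probe set, so the nuclear and mitochondrial forms of the protein, which come from the same gene, were not told apart. Ung missed the threshold when Sod2+/+ replicate 29, 33 or 37 (adjusted p = 0.108, 0.0756 and 0.104) or Sod2-/- replicate 35 or 39 (0.148 and 0.112) was left out, after quantile normalization (0.0522) and with array weights (0.0597). The log2 fold change was -0.86 with fluidics station as a block (adjusted p = 0.0678), -0.40 and -1.17 within stations 1 and 2 (adjusted p = 0.860 and 0.104), -1.10 with chip lot as a block (adjusted p = 0.0965) and -1.10 within chip lot 1 (adjusted p = 0.0637).

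Apex1, the endonuclease that acts after every one of these glycosylases, gave unlike values on its 3 probe sets. Probe set 1456079_x_at had log2 values of 7.17, 7.16, 7.20 and 7.38 in Sod2+/+ and of 6.72, 6.50 and 6.76 in Sod2-/- arrays. All Sod2-/- arrays lay below all Sod2+/+ arrays, and the probe set was 1.48-fold lower (95% interval from 1.29 to 1.71, log2 fold change -0.57 with a standard error of 0.09, adjusted p = 0.0229). The brightest probe set, 1437715_x_at, measured 7.89, 7.82, 7.99 and 7.93 in Sod2+/+ against 7.76, 7.76 and 7.80 in Sod2-/- arrays, which did not overlap either. Its log2 fold change of -0.13 (95% interval from -0.28 to 0.02) did not pass (adjusted p = 0.313), and it was 0.12 after quantile normalization (adjusted p = 0.647). Probe set 1416135_at changed by -0.56 on the log2 scale with a standard error of 0.18 and did not pass (adjusted p = 0.128), with Sod2-/- replicate 39 level with Sod2+/+ replicates 17 and 29 at 5.06. The suffix _x_at marks probe sets with probes that may match other transcripts, so the level of either such probe set is uncertain. Probe set 1456079_x_at missed the threshold when Sod2+/+ replicate 29 or 37 (adjusted p = 0.0535 and 0.0558) or Sod2-/- replicate 35 (0.0751) was left out, and after quantile normalization (log2 fold change -0.37, adjusted p = 0.0544). It held with fluidics station as a block (-0.57, adjusted p = 0.0373). Within station 1 it was -0.45, and within station 2 it was -0.66 (adjusted p = 0.179). With chip lot as a block and within chip lot 1 it was -0.73. Both of these estimates rest on Sod2-/- replicate 35 alone, the array with the lowest value of this probe set. With the mean of its 3 probe sets as the level of the gene, Apex1 passed (log2 fold change -0.42, adjusted p = 0.0485).

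Ogg1, the glycosylase of oxidized guanine, had log2 values of 4.99, 5.30, 5.03 and 5.01 in Sod2+/+ and of 5.30, 5.19 and 5.39 in Sod2-/- arrays on its brightest probe set. Of the 8 genes it alone had an estimate above 0 on that probe set, but Sod2+/+ replicate 29 lay among the Sod2-/- arrays. The log2 fold change was 0.21 (standard error 0.09, 95% interval from -0.00 to 0.43, adjusted p = 0.264), and that of its other probe set was -0.00 (95% interval from -0.21 to 0.20). Mutyh, the adenine glycosylase, measured 4.40, 4.38, 4.42 and 4.47 in Sod2+/+ against 4.32, 4.44 and 4.39 in Sod2-/- arrays, and the genotypes overlapped. Its log2 fold change was -0.03 (95% interval from -0.18 to 0.11, adjusted p = 0.832), so a change beyond 1.13-fold in either direction lies outside the interval, though its log2 values were below the median of all probe sets.

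Other genes of the pathways were examined in lists, each gene on its brightest probe set. Of 41 listed genes 37 were measured, of which 10 were lower and 0 higher by limma (4.47% and 0.412% of all genes). At an unadjusted p under 0.05, 20 were lower (18.4% of all genes) and 2 higher. The methods' t-test called 0. The median log2 fold change of these genes was -0.27, against 0.02 over all genes. Over all probe sets with a mean log2 value from 6 to 8 and from 8 to 16, the median was -0.18 and -0.24. Most of the 37 genes lie at such levels, and the part of brightness in their median was not tested. Of the 10 that were lower, 7 belong to the resynthesis of the excised strand, 2 to the nucleotide pool and 1 to the later steps of base excision. Resynthesis uses the sliding clamp, its loader, the single-strand binding protein RPA and DNA polymerase delta, which are also parts of the replication machinery, and all 13 measured genes had log2 fold changes below 0 (from -1.06 to -0.07, median -0.71). The largest changes among those past the threshold were in Pold2, a subunit of polymerase delta (log2 fold change -1.06, standard error 0.13, adjusted p = 0.0121), Rpa3, the small subunit of RPA (-0.93, 0.18 and 0.0330), and Rfc3, a subunit of the clamp loader (-0.91, 0.13 and 0.0185). With chip lot as a block none of these 3 passed (adjusted p = 0.0562, 0.206 and 0.0917). Rpa3 and Rfc3 also missed the threshold when Sod2+/+ replicate 29 or 37 or Sod2-/- replicate 35 was left out (adjusted p from 0.0502 to 0.0886), as did Rpa3 without Sod2-/- replicate 39 (0.0518), with station as a block (0.0547) and after quantile normalization (0.0645). The count of 10 was 1 with chip lot as a block, 5 with fluidics station as a block, 4 after quantile normalization, 2 when Sod2+/+ replicate 29 or 37 or Sod2-/- replicate 35 was left out, and 5 when Sod2-/- replicate 39 was.

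Nudt1, which clears oxidized purine nucleotides before they are built into DNA, had log2 values of 6.76, 6.76, 6.67 and 6.72 in Sod2+/+ and of 6.10, 5.95 and 6.06 in Sod2-/- arrays. The arrays of each genotype lay close together and far from the other genotype. Its log2 fold change was -0.69 (standard error 0.07, 1.61-fold lower, adjusted p = 0.00542), and leaving out any 1 of the 7 arrays did not end the call. Dut, which removes dUTP and so limits the uracil that Ung acts on, was 2.00-fold lower (95% interval from 1.53 to 2.60, adjusted p = 0.0258). Dut missed the threshold when Sod2+/+ replicate 29 or 37 (adjusted p = 0.0619 and 0.0724) or Sod2-/- replicate 35 (0.0664) was left out and with chip lot as a block (0.150), and with its probe sets averaged the log2 fold change was -0.47 (adjusted p = 0.0403). With Nudt1 it makes 2 of 4 measured genes of the nucleotide pool that were lower (4.47% of all genes).

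Of 6 other glycosylases measured, limma called 0, the methods' t-test called 0, and 1 was lower at an unadjusted p under 0.05 (18.4% of all genes). Mbd4, which removes thymine and uracil mispaired with guanine, had the largest log2 fold change of this list (-0.38, standard error 0.13, adjusted p = 0.135), followed by Neil3, a glycosylase of oxidized bases (-0.25, 0.18 and 0.486). Of 10 later base excision genes, 1 was lower and 0 higher by limma (4.47% and 0.412% of all genes). At an unadjusted p under 0.05, 5 were lower (18.4% of all genes) and 2 higher. The latter were Apex2, a homologue of Apex1, and Lig3, a DNA ligase, at 0.22 and 0.25 on the log2 scale (adjusted p = 0.103 and 0.108). Both were named after their values were seen. In this list 3 genes were lower and these 2 higher without overlap of the genotypes, against 14.8% and 7.19% of all genes. The gene called lower was Parp2, a sensor of strand breaks, at 1.39-fold lower (log2 fold change -0.48 with a standard error of 0.10, adjusted p = 0.0393). Parp2 missed the threshold with station or chip lot as a block (adjusted p = 0.0670 and 0.0638), after quantile normalization (log2 fold change -0.24, adjusted p = 0.0971) and when any array but Sod2+/+ replicate 17 was left out (adjusted p from 0.0514 to 0.134). Among the 4 other MutS and MutL genes limma and the methods' t-test called 0, and 0 passed at an unadjusted p under 0.05. Their largest log2 fold changes were -0.19 for Mlh3 and -0.12 for Msh5, a MutS protein of meiosis.

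**Figure D3:**
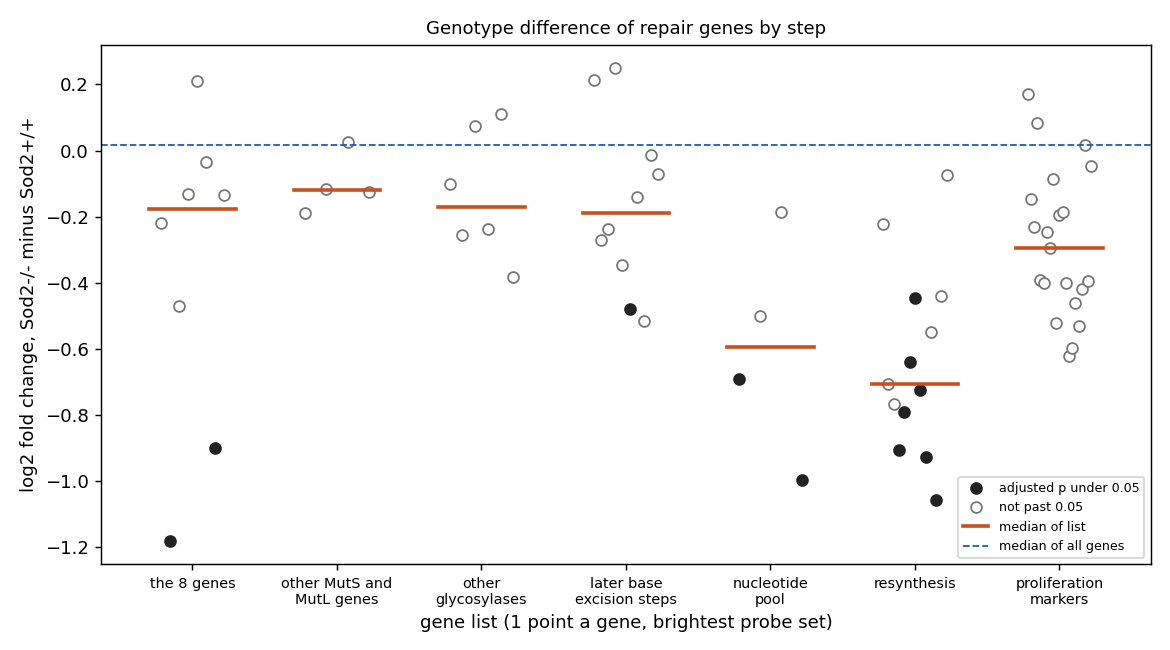
Log2 fold change, Sod2-/- minus Sod2+/+ (vertical axis), of the 8 genes, of 37 other repair genes in 5 lists and of 21 proliferation markers, 1 point a gene on its brightest probe set; filled points passed an adjusted p of 0.05, orange bars are list medians and the dashed line is the median of all genes. The resynthesis and nucleotide pool lists have the lowest medians, at -0.71 and -0.60. Of the 21 proliferation markers 0 passed, and 18 lie below 0.

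Markers of dividing cells, measured because mismatch repair and Ung act at replication forks, were called 0 times in 21 genes by limma. For these the methods' t-test called 0, while 11 were lower (18.4% of all genes) and 1 higher at an unadjusted p under 0.05. Without overlap of the genotypes 10 were lower and 1 higher (14.8% and 7.19% of all genes). The log2 fold change was below 0 in 18 of the 21 (45.8% of all genes). The list had a median log2 fold change of -0.29, against -0.24 over all probe sets with a mean log2 value from 8 to 16. Mcm3 and Mcm4, subunits of the replicative helicase, had the largest changes (-0.62 and -0.60, adjusted p = 0.121 and 0.167). Relative to the Sod2+/+ group, Sod2-/- replicates 31, 35 and 39 had mean shifts of -0.07, -0.25 and -0.53 (log2) over this list, and over the resynthesis list of -0.41, -0.59 and -0.91. Msh6 had the same order over these 3 arrays, and so did Ung. The part of proliferation in the values of Msh6 and Ung was not tested.

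Of the markers of other marrow cells, limma called members of the B cell list. The summed linear level of 13 B cell markers lay between 862 and 1021 with SOD2 and between 485 and 585 without it. Of the 13, 7 were lower by limma (4.47% of all genes). The summed level of 10 neutrophil markers ran from 34177 to 42648 in Sod2+/+ arrays. It was 34020, 16304 and 22504 in Sod2-/- replicates 31, 35 and 39. Of these markers limma and the methods' t-test called 0, and 9 were lower at an unadjusted p under 0.05 (18.4% of all genes). The summed level of 10 macrophage markers was 1623 in Sod2-/- replicate 39 against 425 to 588 in the other arrays. The 9 measured erythroid markers, which include Slc4a1, Alas2 and Klf1, had a summed level between 35299 and 35971 with SOD2 and between 35075 and 39240 without it. Of these limma and the methods' t-test called 0, and 1 was higher at an unadjusted p under 0.05. Without overlap of the genotypes 2 were higher and 0 lower (7.19% and 14.8% of all genes), namely Alas2 and Tfrc, the gene of CD71. The study reports a larger share of early, CD71-high erythroblasts in Sod2-/- marrow. Without Sod2-/- replicate 39, the array of the high macrophage markers, the log2 fold changes of Msh6, Ung and Apex1 1456079_x_at were -0.99, -0.78 and -0.62. Without replicate 35, the array with the lowest neutrophil markers, they were -1.16, -0.80 and -0.49. The part of these cells, and of the stage of the erythroblasts, in the repair genes was not tested.

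**Figure D4:**
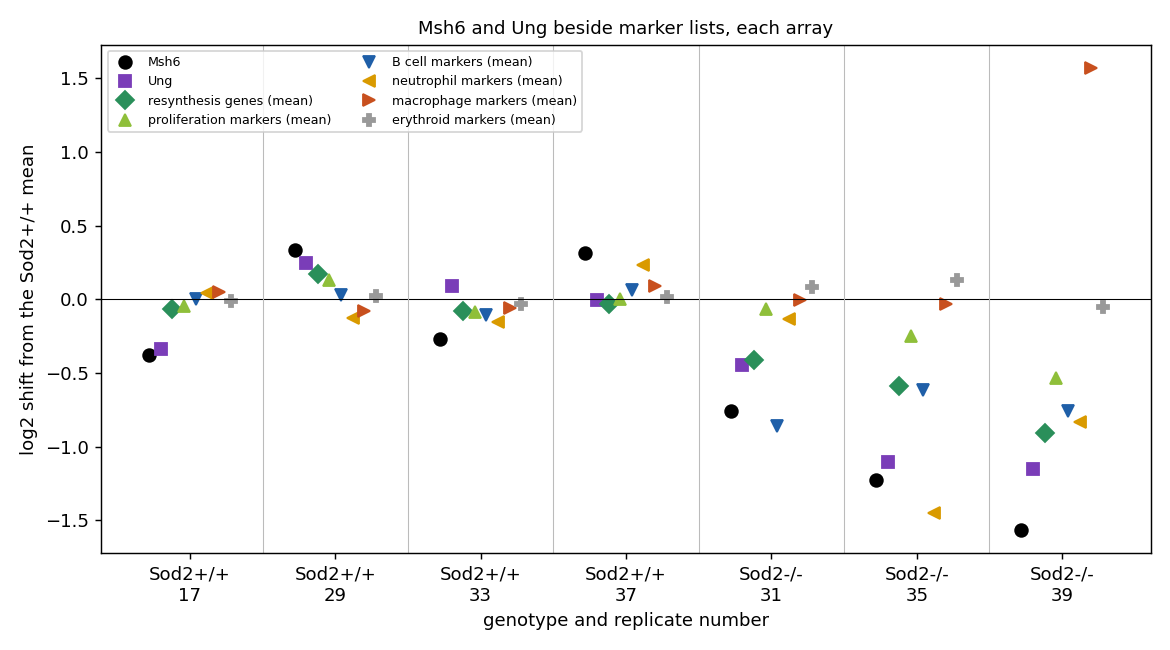
Shift from the Sod2+/+ mean (log2, vertical axis) of Msh6, of Ung and of the mean of 6 gene lists in each of the 7 arrays, 1 symbol a gene or list. Msh6, Ung, resynthesis genes and proliferation, B cell and neutrophil markers lie below 0 in all 3 Sod2-/- arrays. In Sod2-/- replicate 31, proliferation and neutrophil markers lie within the range of the Sod2+/+ arrays. Macrophage markers stand out in Sod2-/- replicate 39.

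The pattern of Msh6 over the 7 arrays was set against that of the other 18192 genes on their brightest probe sets. The highest Pearson correlations, given as a description over 7 arrays that share the genotype difference, were with C1galt1 (0.996), a glycosyltransferase, Snrpb2 (0.995), a protein of the spliceosome, Nae1 (0.995), Smim8 (0.993) and Cetn2 (0.993), a centrin. Of the other 7 genes described here, Ung ranked 449 (0.946) and Pms2 ranked 1192 (0.896). The correlation with Msh6 was 0.671 for Msh3, 0.576 for Apex1, 0.508 for Exo1, 0.201 for Mutyh and -0.504 for Ogg1.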

How the data were processed

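RNA of sorted erythroblasts was hybridised to Affymetrix mouse arrays, 4 for Sod2+/+ and 3 for Sod2-/-. The deposited log2 values were made by the authors by robust multi-array averaging, and the submitters' processing notes also name GCOS 1.3.037. Replicate numbers come from the sample titles. The values were used without a further filter. Control probe sets (64) were removed and 45037 tested, of which 34945 match 1 gene, 932 several and 9160 none, in the array annotation used here. Symbols were updated through RefSeq gene identifiers of GRCm38.p6 (99.4% found). The genotype was the only term of the linear model (limma 3.58.1, lmFit with eBayes, under R 4.3.3), from which the adjusted p-values come. The difference of Msh6 and Msh3 was tested by an exact permutation test in Python 3.11.15. Intervals are at 95%.

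The members and lists were chosen with earlier results of these data known. Named genes are the 8 members, from each list the 3 genes that changed most among those called (2 among all where there was no call), and the 5 genes most like Msh6. A gene is its brightest probe set. The lists comprise 41 other repair genes, 22 proliferation markers and markers of erythroid, B, T, neutrophil and macrophage cells, and of 6 T cell markers limma and the methods' t-test called 0, with 1 lower and 1 higher at an unadjusted p under 0.05. Alternatives comprised both forms of the methods' t-test (equal or unequal variances), trended robust eBayes, array weights (statmod 1.5.0), quantile normalization, centring on array medians, an offset of 32 on the linear scale, bright probe sets alone, fluidics station or chip lot as a block or alone, averaging the probe sets of a gene, and leaving out each array. The limma fit was tested on simulated data with independent noise. These data held no batch and no shift that varies with brightness, so that test does not cover either. The number of arrays limits the precision.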

Additional observations from a re-analysis of the deposited data

Results flagged for a closer look

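In the Sod2+/+ arrays, Ogg1 on its brightest probe set was 5.30 (log2) in replicate 29, and the gap to the next array made up 0.857 of the range of the 4 arrays. Apex1 on probe set 1456079_x_at was 7.38 in replicate 37, with a gap of 0.831 of the range. Both pass Dixon's limit for 4 samples, which chance passes in about 1 of 20 groups, and 30 such groups were examined.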

How the results depend on the processing

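Called member probe sets numbered 3 (all lower) on the deposited values, and 0 by both forms of the methods' t-test, with an offset of 32, within each station and within chip lot 1. They numbered 1 after quantile normalization and with station or chip lot as a block, and from 0 to 3 when each array was left out. Called member genes numbered 2 (both lower), 1 with array weights and after quantile normalization, 3 with probe sets averaged per gene, from 0 to 2 when each array was left out, and 0 by both t-tests, with an offset of 32, with either block, within each station and within chip lot 1. No setting tried called a member higher. Other repair genes called lower numbered 10, and 0 by both t-tests and within each station, 4 after quantile normalization, 3 with an offset of 32, 5 with station and 1 with chip lot as a block, 3 within chip lot 1, and from 2 to 12 when each array was left out. Proliferation markers called lower numbered 0, but 1 with centring on array medians, 2 with bright probe sets alone, and from 0 to 2 when each array was left out. The difference of Msh6 minus Msh3 was -0.76 after quantile normalization (exact permutation p = 0.0571) and from -1.23 to -0.72 when each array was left out, where the design cannot reach 0.05 (the exact permutation p ran from 0.0667 to 0.133). The cause of these differences was not tested.

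Over all probe sets, lower and higher calls numbered 1275 and 255 on the deposited values (83.3% lower), 826 and 656 after quantile normalization (55.7% lower), 3 and 1 by the equal-variance t-test and 0 by the unequal-variance form. They numbered 172 and 59 with an offset of 32, 744 and 150 with station and 735 and 82 with chip lot as a block, 2076 and 360 with bright probe sets alone, and 0 within each station. The sign turned only in estimates that had not passed. Msh3 1446511_at was 0.18 with chip lot as a block and within chip lot 1, 0.027 in station 1, and from -0.12 to 0.11 when each array was left out. When each array was left out, Msh3 1422261_a_at ran from -0.13 to 0.0058, Exo1 1430225_at from -0.14 to 0.029, Ogg1 1448815_at from -0.051 to 0.051 and Mutyh from -0.062 to 0.00029. Exo1 1430225_at was 0.014 in station 1. With chip lot as a block and within chip lot 1, Ogg1 1448815_at was 0.0064, Mutyh was 0.025 and Msh5 was 0.038. Apex1 1437715_x_at was 0.12 after quantile normalization, and Neil3 was 0.10 in station 1 and 0.00064 with probe sets averaged per gene. No paired analysis was possible because the genotypes share no replicate number and the labels, which mention pairs sorted together, do not say which samples formed a pair.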
